A study of Mus musculus with 9 samples.

Results

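The 4 interferon-induced transmembrane genes Ifitm1, Ifitm2, Ifitm3, and Ifitm6 were taken by symbol from the 31053 genes measured in bone marrow of New Zealand mice. Single cell RNA sequencing (10x Genomics 3' v3.1, with unique molecular identifiers or UMIs) had been performed on cells flushed from the femurs of 9 untreated female mice aged 9 to 10 weeks, after lysis of red blood cells, with 1 library per mouse. There were 3 New Zealand Black (NZB) mice, 3 New Zealand White (NZW) mice, and 3 New Zealand Black-White F1 (NZBWF1) mice, all bought from The Jackson Laboratory and delivered together. The NZBWF1 hybrid, which later develops a lupus-like syndrome, is the offspring of an NZW mother and an NZB father, so each of its cells carries 1 NZB and 1 NZW copy of these autosomal genes. The comparisons asked in which marrow cells the genes are expressed, how the parent strains differ, and where the hybrid lies between its parents.

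IFITM proteins are small membrane proteins that lie in the cell surface and in endosomal membranes, where they restrict the entry of many enveloped viruses. Ifitm1, Ifitm2, and Ifitm3 are induced by interferons in most cell types, although hematopoietic progenitors express some members without interferon. Ifitm6 is less studied, and is known mostly from myeloid cells.

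The genes lie in 1 cluster on chromosome 7. In GRCm38 with GENCODE vM21 annotation, the cluster spans 63088 bases, from 140954837 to 141017924. Ifitm2 (140954837 to 140955987, minus strand) is followed by Ifitm1 (140967221 to 140969825, plus strand), Ifitm3 (141009586 to 141010770, minus strand), and Ifitm6 (141015699 to 141017924, minus strand). The gap from Ifitm2 to Ifitm1 is 11233 bases, from Ifitm1 to Ifitm3 39760 bases, and from Ifitm3 to Ifitm6 4928 bases. Since the members differed in pattern between cells, their promoters are shown from RefSeq on GRCm38.p6, from 250 bases before the RefSeq start up to the next base that GENCODE annotates as exon. They are written 5′ to 3′ on the strand of the gene. Capitals mark a match to GAAANNGAAA, the core shared by many interferon-stimulated response elements.
Ifitm1: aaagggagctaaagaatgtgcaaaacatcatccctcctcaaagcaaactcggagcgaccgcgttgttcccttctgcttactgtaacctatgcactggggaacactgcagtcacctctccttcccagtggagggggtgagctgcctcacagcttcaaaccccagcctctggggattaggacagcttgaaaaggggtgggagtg
Ifitm2: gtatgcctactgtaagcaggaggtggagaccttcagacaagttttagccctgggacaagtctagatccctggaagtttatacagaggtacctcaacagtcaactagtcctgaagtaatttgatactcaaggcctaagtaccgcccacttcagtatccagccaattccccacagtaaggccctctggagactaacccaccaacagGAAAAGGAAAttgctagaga
Ifitm3: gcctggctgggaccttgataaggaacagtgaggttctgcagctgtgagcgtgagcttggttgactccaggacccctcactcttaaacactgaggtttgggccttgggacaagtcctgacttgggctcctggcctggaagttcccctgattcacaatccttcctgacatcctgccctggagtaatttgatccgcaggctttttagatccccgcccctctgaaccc
Ifitm6: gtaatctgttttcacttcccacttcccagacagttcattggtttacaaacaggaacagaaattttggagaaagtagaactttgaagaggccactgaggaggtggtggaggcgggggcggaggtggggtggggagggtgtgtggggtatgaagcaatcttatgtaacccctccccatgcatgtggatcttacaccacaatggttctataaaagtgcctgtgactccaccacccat
The printed stretches lie at chr7:140967826-140968027 (plus strand, Ifitm1), chr7:140955988-140956211 (minus strand, Ifitm2), chr7:141010771-141010994 (minus strand, Ifitm3), and chr7:141016909-141017142 (minus strand, Ifitm6). Both strands of the 300-base windows around the starts were searched. Ifitm2 held 1 match, from 46 to 37 bases before the start. Ifitm3 held 2 matches, both beyond the printed stretch in the first transcribed bases, and Ifitm1 and Ifitm6 held 0 in these windows. Ifitm1 and Ifitm6 each have 3 transcripts in GENCODE, and their RefSeq starts lie inside the gene spans given above, so the starts of the longer transcripts were not searched. Of all 32851 promoter windows, 1131 (3.44%) held the motif, as did 13 of the 25 windows (52%) of a list of type I interferon-stimulated genes. These are reference sequences of another strain, so the NZB and NZW alleles may differ from them.

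After quality limits and removal of doublets, 36525 of 68444 barcodes were analysed, 2359 to 5217 per mouse, with a median of 2109 to 2469 UMIs per cell. Per-cell marker gates that used none of the Ifitm genes placed 91.4% of the cells in a class, named with the ending "-like" because no protein was measured. At least 10 cells in enough mice were found for 19 classes, where HSPC stands for hematopoietic stem and progenitor cell, GMP for granulocyte-monocyte precursor, and pDC for plasmacytoid dendritic cell. Every marker of the defining panel was detected in each of these classes, although the summed stem cell panel was as high in plasma-cell-like cells (2260 CPM, the UMIs of the genes scaled to a common total per class and mouse) as in HSPC-like cells (2119 CPM). Free RNA was estimated from near-empty droplets as 0.232% to 1.04% of the UMIs in a median cell. In a cell of that depth it would add at most 6.48 CPM of any member, and more in classes with fewer UMIs per cell. The same barcode sequence occurred in more than 1 mouse for 302 cells (0.827%).

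The members differed in the cells in which they were highest. Ifitm6 was highest in neutrophils, with a mean of 5724 CPM in NZB, 3151 CPM in NZW, and 3310 CPM in NZBWF1 mature neutrophil-like cells. It declined from mature to immature to dividing neutrophil-like cells, and on to classical monocyte-like, dividing monocyte-like, and GMP-like cells, and each of these 5 steps was seen in 9 of 9 mice (exact sign-flip test over mice, two-sided, adjusted p = 0.0141 over 18 neighbouring pairs of classes, from the smallest p that 9 mice allow, 0.00391). The step from mature to immature neutrophil-like cells was small (0.17 ± 0.09 on the log2(CPM + 5) scale, mean ± SD, n = 9 mice), whereas from immature to dividing cells the mean went from 11.76 to 9.75 on that scale. In the B lineage, T-cell-like, NK-cell-like, and erythroid classes the mean of every strain was at most 24.2 CPM.

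Of the 19 classes, Ifitm3 was highest in classical monocyte-like cells, at 2944, 2831, and 3899 CPM in the NZB mice, 3311, 3772, and 3096 CPM in the NZW mice, and 3905, 3824, and 3804 CPM in the NZBWF1 mice. The parents overlapped there, and no contrast was called. Nonclassical monocyte-like cells, too few to be tested, stood higher still, at 3462 to 5209 CPM in the NZW mice and at 4605 and 4864 CPM in the single NZB and NZBWF1 mouse with enough cells. Mature neutrophil-like, dividing monocyte-like, and immature neutrophil-like cells followed, and lymphoid and erythroid classes lay far lower. Ifitm1 was highest in basophil-like cells of every strain, with 1163 to 2640 CPM in NZB, 2361 and 2548 CPM in the 2 NZW mice with enough cells, and 2730 and 2316 CPM in the 2 such NZBWF1 mice. In NZB the next highest means were in HSPC-like (1075 CPM) and mature neutrophil-like cells (558 CPM). In NZW they were in small pre-B-like cells (2333 CPM), B-lineage cells of no finer class (1829 CPM), mature B-like (1442 CPM), and pro-B-like cells (1291 CPM), ahead of mature neutrophil-like cells (1060 CPM). Ifitm2 was the most widely expressed of the 4 in NZW mice, where its lowest mean over the 19 classes was 191 CPM, in mature neutrophil-like cells. For Ifitm1, Ifitm2, and Ifitm3 the order of classes was not the same in the strains, so that a spread over all 9 mice holds the strain difference as well, and neighbouring classes are not ordered here by a test. A single pair in 9 of 9 mice could not pass over 18 pairs (adjusted p = 0.0703, exact sign-flip test), as for Ifitm2 in dividing monocyte-like above GMP-like cells (0.47 ± 0.14 on the log2(CPM + 5) scale, mean ± SD, n = 9 mice) and Ifitm3 in dividing neutrophil-like above GMP-like cells (0.70 ± 0.35).

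**Figure D1:**
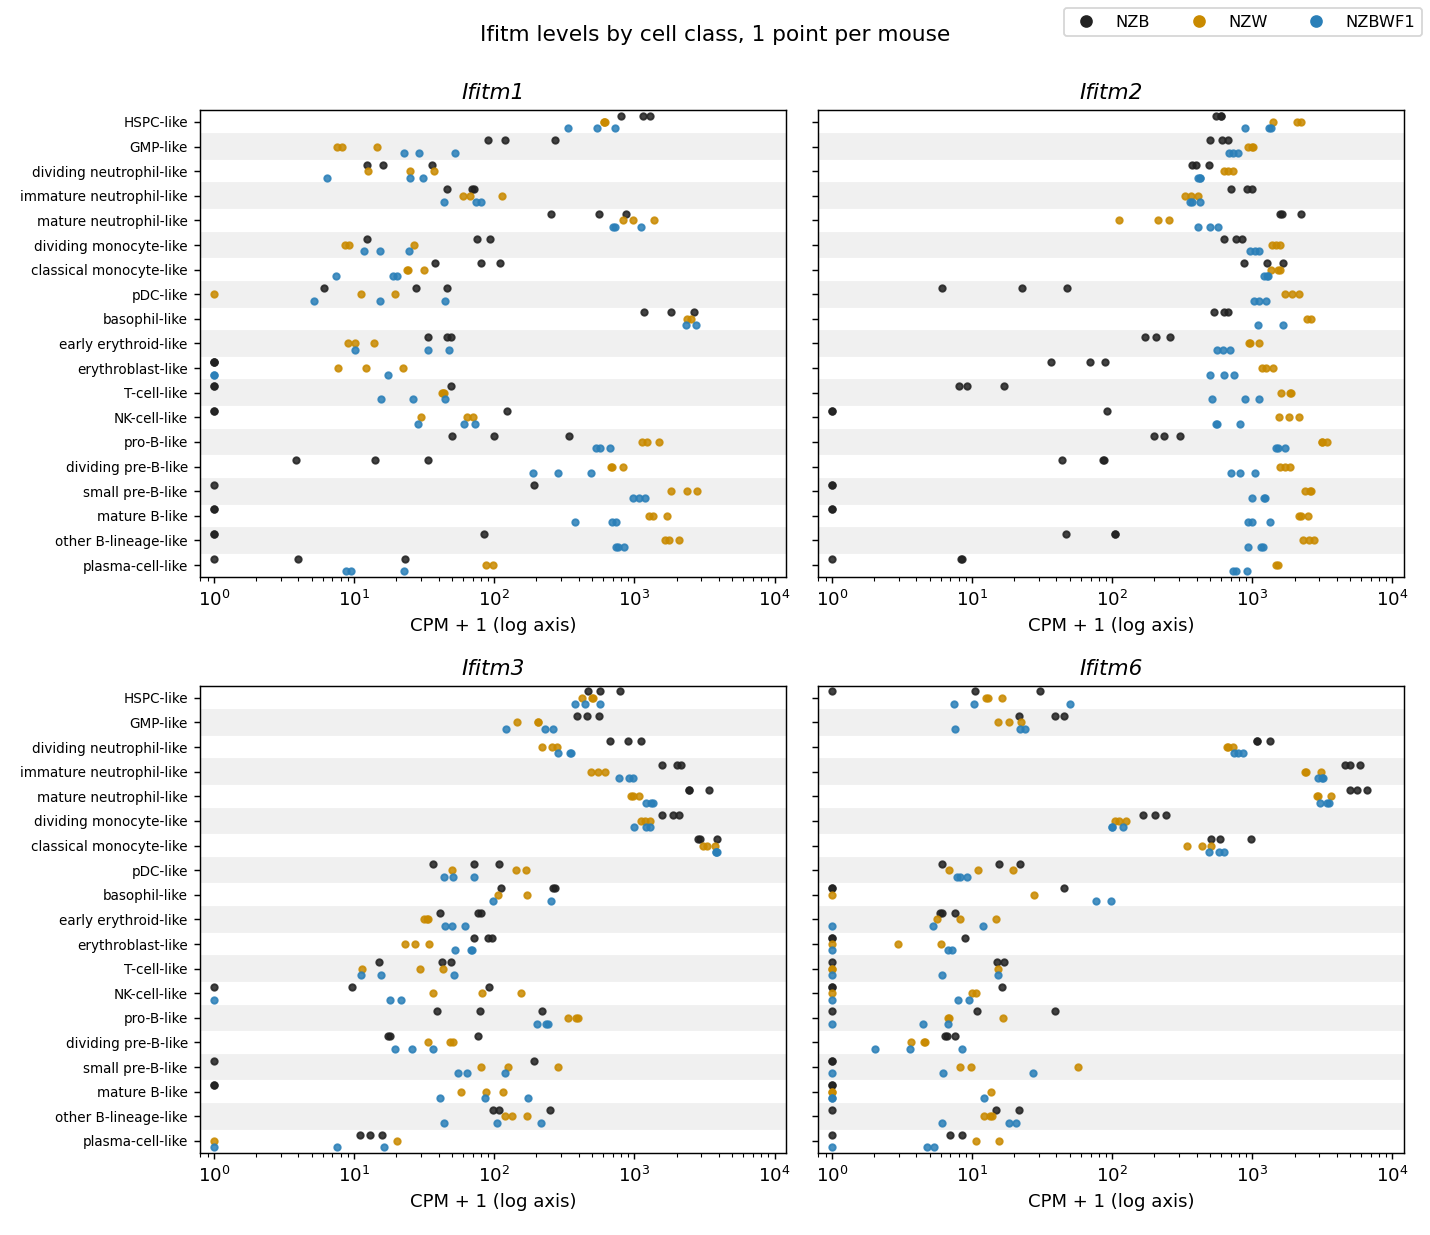
Level of each Ifitm gene in each cell class as CPM + 1 on a log axis, with 1 point per mouse and strain by color. NZB points of Ifitm2 lie far left of the other strains in lymphoid and erythroid classes and to their right in immature and mature neutrophil-like cells, and Ifitm6 is high in neutrophil-like and monocyte-like classes.

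The parents differed in most classes. Of 76 combinations of a member and a class, 58 passed the filter on low counts and 18 did not. Between NZB and NZW, 42 of the 58 differed (edgeR quasi-likelihood, adjusted p under 0.05), 18 higher and 24 lower in NZB, against 7.39% of all gene tests in the same classes, 3.75% higher and 3.65% lower. Ifitm2 differed in 18 of 19 classes (2 higher, 16 lower), Ifitm1 in 10 of 16 (4 higher, 6 lower), Ifitm3 in 9 of 16 (7 higher, 2 lower), and Ifitm6 in 5 of 7 (5 higher). A class with few cells in NZB passed the filter mostly through the other strains, so these counts describe the members tested and are not read as a property of all combinations.

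Ifitm2 was far lower in lymphoid cells of NZB than of NZW. In T-cell-like cells it stood at 8.20, 15.9, and 7.02 CPM in the NZB mice, at 1866, 1890, and 1609 CPM in the NZW mice, and at 518, 1116, and 882 CPM in the NZBWF1 mice. The 3 strains did not overlap. The NZB level rested on 3 UMIs in 220 cells, and the ratio of NZW to NZB over the pooled counts was 194 (exact 95% interval 66.0 to 944, for counting error only). NK-cell-like cells held 0, 91.3, and 0 CPM in NZB against 1821, 2163, and 1556 CPM in NZW, and pDC-like cells 5.10, 46.4, and 21.7 CPM against 1705, 2155, and 1933 CPM. In T-cell-like, small pre-B-like, and mature B-like cells, with 3, 0, and 0 NZB UMIs, Ifitm2 passed the filter on low counts through the other strains. In NK-cell-like, pDC-like, and plasma-cell-like cells, with NZB means of 30.4, 24.4, and 4.96 CPM, it also passed mostly through them. Calls in these classes are thus a description of the levels. The difference between NZB and NZW was called in all 9 lymphoid and pDC classes (edgeR adjusted p = 2.1e-03 in NK-cell-like cells, 2.8e-05 in pDC-like cells, and 2.1e-22 in T-cell-like cells). Of all genes tested, 0.298% to 3.22% were called lower in NZB in these classes.

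The same held along the B lineage, in which cells pass from pro-B through dividing and small pre-B to mature B cells. Pro-B-like cells had the highest NZB mean of the B-lineage classes, with 198, 302, and 235 CPM of Ifitm2 against 3147, 3123, and 3437 CPM in NZW (log2 fold change -3.81 ± 0.19, SE, edgeR adjusted p = 1.3e-29). In dividing pre-B-like cells the difference was -4.66 ± 0.19 and in the B-lineage cells of no finer class -4.79 ± 0.23 (edgeR adjusted p = 4.9e-20 and 2.9e-22). Mature B-like cells of the 2 NZB mice with enough cells held 0 UMIs in 67 cells, against 2511, 2160, and 2234 CPM in NZW, at least 75.0-fold lower by a floor of 3 UMIs over the strain. Small pre-B-like cells held 0 UMIs in 22 cells of 2 NZB mice, at least 24.3-fold lower than NZW, although the third NZB mouse, left out with 8 such cells, stood at 269 CPM. In plasma-cell-like cells the NZB mice held 7.37, 0, and 7.51 CPM against 1475 and 1517 CPM in the 2 NZW mice with enough cells.

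Ifitm2 was also lower in NZB in erythroid cells, progenitors, and basophils. Ifitm2 in erythroblast-like cells, which make hemoglobin, was 35.3, 68.2, and 88.5 CPM in NZB and 1397, 1167, and 1255 CPM in NZW (log2 fold change -4.20 ± 0.17, edgeR adjusted p = 2.4e-40). Early erythroid-like cells differed by -2.22 ± 0.12, basophil-like cells by -2.04 ± 0.26, HSPC-like cells by -1.76 ± 0.16, and GMP-like cells by -0.85 ± 0.12, all called by edgeR (adjusted p = 6.1e-14, 4.9e-09, 9.4e-19, and 6.4e-09). Among monocytes, dividing cells were lower in NZB by 0.99 ± 0.11 on the log2 scale (edgeR adjusted p = 1.3e-09). Classical monocyte-like cells had 868, 1267, and 1666 CPM in NZB and 1536, 1572, and 1359 CPM in NZW, which overlapped, and the difference was not called (-0.24 ± 0.14, edgeR adjusted p = 0.29).

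Neutrophils went the other way as they matured. In mature neutrophil-like cells Ifitm2 was 1621, 2231, and 1563 CPM in the NZB mice and 253, 211, and 110 CPM in the NZW mice, with 412, 571, and 499 CPM in the NZBWF1 mice. Every NZB mouse lay above every hybrid, and every hybrid above every NZW mouse (NZB against NZW 3.40 ± 0.36, edgeR adjusted p = 1.2e-03), although the hybrid and NZW were not called different (1.33 ± 0.36, edgeR adjusted p = 0.27). Immature neutrophil-like cells had 920, 997, and 703 CPM in NZB and 365, 405, and 328 CPM in NZW (1.44 ± 0.14, edgeR adjusted p = 2.4e-08), whereas dividing neutrophil-like cells were lower in NZB, at 398, 490, and 369 CPM against 733, 625, and 672 CPM (-0.62 ± 0.11, edgeR adjusted p = 1.5e-05). From dividing to mature cells the mean level thus went from 419 to 1805 CPM in NZB and from 677 to 191 CPM in NZW.

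The 7 markers that separate mature from immature neutrophils summed to 34355 to 39069 CPM in mature neutrophil-like cells of NZB and to 34516 to 37172 CPM in those of NZW. In immature neutrophil-like cells they summed to 4944 to 5670 CPM in NZB and 3505 to 4930 CPM in NZW, so the NZB cells stood higher on that panel, and its part in the Ifitm2 difference was not tested. Of 8374 non-dividing neutrophils, counted before removal of doublets, 888 lay near the limit between the classes. With cells of at least 2000 UMIs, the Ifitm2 difference in immature neutrophil-like cells was no longer called (0.19, edgeR adjusted p = 0.80), and mature neutrophil-like cells were too few to be fitted. With Leiden clusters in place of gates, the mature neutrophil difference was 2.56 and was still called.

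**Figure D2:**
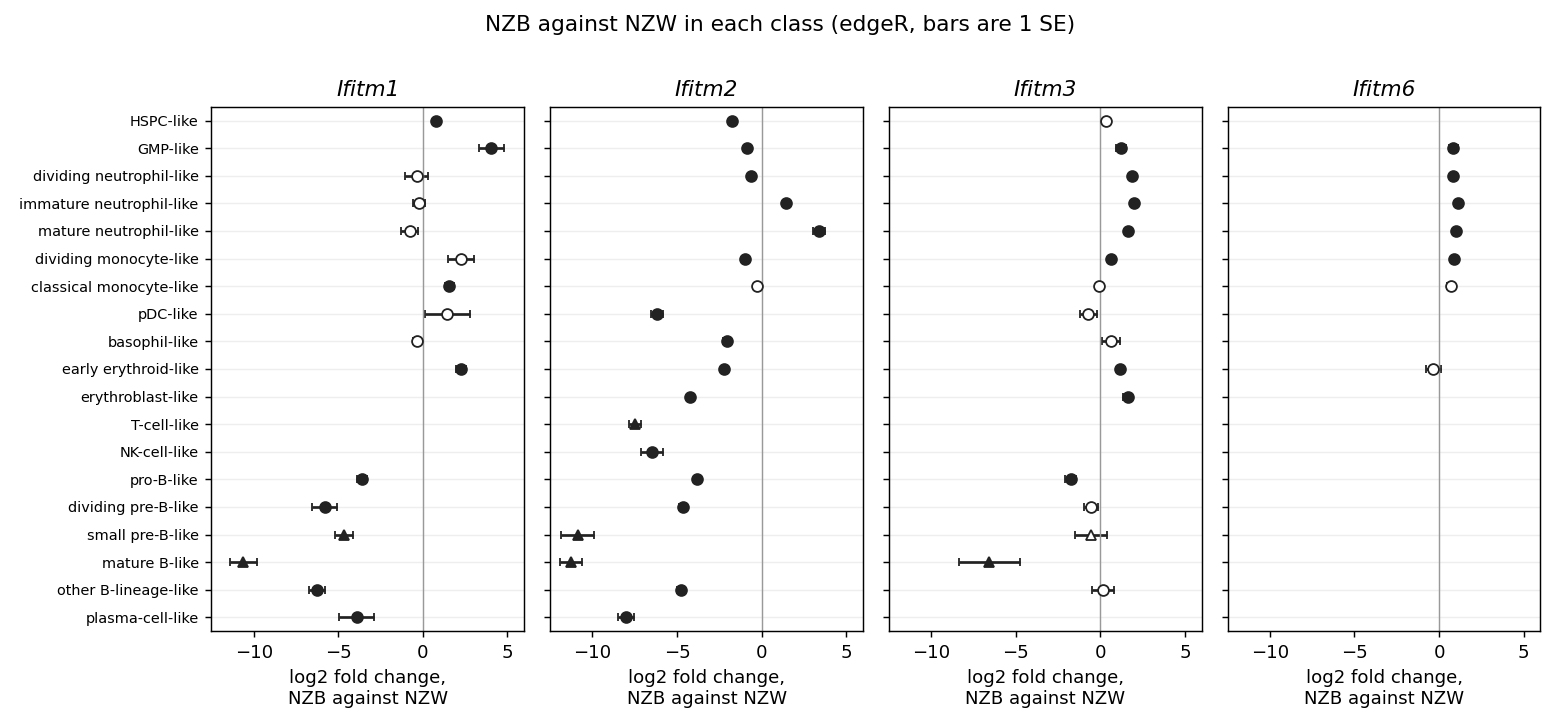
Log2 fold change of NZB against NZW for each Ifitm gene in each class (edgeR, bars are 1 SE), with filled symbols for adjusted p under 0.05, open symbols for the rest, and triangles where NZB held 3 or fewer UMIs, so that the fitted size is not read. Ifitm2 points lie left of 0 except in immature and mature neutrophil-like cells, and Ifitm3 and Ifitm6 points in neutrophil-like classes lie right of 0.

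Short reads can fall on stretches that Ifitm genes share. Of the 566 windows of 90 bases in the annotated Ifitm2 transcript, 0 occurred in Ifitm1, Ifitm3, or Ifitm6. Of its 606 windows of 50 bases, 20 (3.30%) also occurred in Ifitm3. Of its 626 windows of 30 bases, 40 (6.39%) also occurred in Ifitm3 and 11 (1.76%) in Ifitm1. The reads of all strains were counted on the mm10 reference, and how far NZB or NZW sequence differs from it was not examined. The part of shared stretches in the strain differences was not tested.

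Ifitm1 was lower in NZB along the B lineage, as Ifitm2 was. In pro-B-like cells it stood at 98.9, 340, and 48.9 CPM in NZB and at 1238, 1132, and 1502 CPM in NZW (-3.60 ± 0.29, edgeR adjusted p = 1.4e-15). The B-lineage cells of no finer class held 0, 83.1, and 0 CPM in NZB against 2066, 1771, and 1649 CPM in NZW (edgeR adjusted p = 8.3e-06), and mature B-like cells held 0 UMIs in 67 NZB cells, at least 46.1-fold lower than NZW. In mature B-like and small pre-B-like cells, with 0 and 3 NZB UMIs, Ifitm1 passed the filter on low counts through the other strains. In B-lineage cells of no finer class and plasma-cell-like cells, with NZB means of 27.7 and 8.36 CPM, it also passed mostly through them. Calls in these classes are thus a description of the levels. All 6 B-lineage classes were called lower in NZB, where 0.298% to 2.09% of all genes tested were called lower. Of these calls, dividing pre-B-like cells (-5.80 ± 0.74, edgeR adjusted p = 0.013) lost the call without NZB mouse 2 (0.0830) or NZB mouse 3 (0.0888), and plasma-cell-like cells (edgeR adjusted p = 0.046) lost it without any of 5 mice (0.188 to 0.507), with Leiden clusters (-2.60, edgeR adjusted p = 0.491), and with doubled gate minima (0.0542).

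In myeloid and erythroid progenitors Ifitm1 was higher in NZB. GMP-like cells had 88.4, 270, and 117 CPM in NZB and 7.13, 6.53, and 13.6 CPM in NZW, without overlap (4.05 ± 0.73, edgeR adjusted p = 0.017), and the adjusted p rose to between 0.0568 and 0.0757 without any 1 of the NZW mice. Early erythroid-like cells differed by 2.25 ± 0.29 and HSPC-like cells by 0.79 ± 0.19 (edgeR adjusted p = 4.6e-06 and 9.6e-03). The former call was lost with Leiden clusters (0.45, edgeR adjusted p = 0.35), and the latter without NZW mouse 3 (edgeR adjusted p = 0.0705), with doubled gate minima (0.271), and with DESeq2 (0.405). Classical monocyte-like cells were higher in NZB by gates (1.57 ± 0.28, edgeR adjusted p = 9.6e-05), but not when Leiden clusters took the place of the gates (0.02, edgeR adjusted p = 0.99), with doubled gate minima (0.107), or with cells of at least 2000 UMIs (0.176). In mature neutrophil-like cells, with 252 to 865 CPM in NZB and 827 to 1379 CPM in NZW, and in basophil-like cells the strains overlapped in CPM and no difference was called (edgeR adjusted p = 0.46 and 0.78).

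Ifitm3 was higher in NZB in all 3 neutrophil classes. Mature neutrophil-like cells had 2454, 3409, and 2460 CPM in NZB, 1081, 969, and 946 CPM in NZW, and 1207, 1347, and 1316 CPM in NZBWF1 (NZB against NZW 1.64 ± 0.13, edgeR adjusted p = 2.6e-11). The 3 strains did not overlap. The differences in immature and dividing neutrophil-like cells were 1.97 ± 0.14 and 1.90 ± 0.19 (edgeR adjusted p = 2.1e-11 and 2.6e-05). Dividing monocyte-like cells were also higher in NZB (0.62 ± 0.11, edgeR adjusted p = 3.4e-05), whereas classical monocyte-like cells were not called (-0.09 ± 0.11, edgeR adjusted p = 0.67).

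Ifitm3 was low in erythroid cells but higher in NZB there, with 70.6, 89.2, and 95.9 CPM in NZB erythroblast-like cells and 22.1, 33.1, and 26.1 CPM in those of NZW (1.62 ± 0.26, edgeR adjusted p = 1.5e-06). For Ifitm3 in early erythroid-like cells the log2 fold change was 1.14, a call that stayed in 16 of 17 alternatives. In pro-B-like cells it was lower in NZB (-1.75 ± 0.31, edgeR adjusted p = 3.2e-05), with 218, 37.8, and 78.2 CPM in NZB against 381, 335, and 392 CPM in NZW. These NZB levels rested on few counts, from 15, 11, and 32 cells with 50535, 26473, and 102243 UMIs of all genes. In mature B-like cells NZB held 0 UMIs of Ifitm3 in 67 cells, at least 2.76-fold lower than NZW by a floor of 3 UMIs. There Ifitm3 passed the filter on low counts through the other strains. Calls in GMP-like cells (higher in NZB) and mature B-like cells (lower in NZB) were past the threshold by little (edgeR adjusted p = 0.037 and 0.026). The former was lost without NZB mouse 3 or any NZW mouse (0.0813 to 0.123) and with no doublets removed (0.0614). The latter was lost without either NZB mouse or without NZW mouse 1 or 2 (0.0641 to 0.400), and with doubled gate minima (log2 fold change -1.17, edgeR adjusted p = 0.589).

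Ifitm6 was higher in NZB in 5 of the 7 classes in which it was tested. Immature neutrophil-like cells had 4979, 5901, and 4576 CPM in NZB and 3101, 2376, and 2396 CPM in NZW, and mature ones 5556, 6634, and 4981 CPM and 3625, 2870, and 2957 CPM. In both classes the parents did not overlap. The log2 fold changes were 1.15 ± 0.13 in immature, 1.02 ± 0.13 in mature, and 0.84 ± 0.11 in dividing neutrophil-like cells, and 0.87 ± 0.13 in dividing monocyte-like cells (edgeR adjusted p = 3.0e-07, 1.5e-05, 1.6e-08, and 2.1e-06). The difference in GMP-like cells, at 14.3 to 44.3 CPM in the parents, was lost without NZB mouse 2 or 3 or NZW mouse 1 or 3 (edgeR adjusted p = 0.024 with all mice, 0.0882 to 0.161 without one), with DESeq2 (adjusted p = 0.198), and with Leiden clusters (edgeR adjusted p = 0.253). Classical monocyte-like cells were not called (0.69 ± 0.23, edgeR adjusted p = 0.080).

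Whether the difference between the parents varied over classes was tested in 1 model of 15 classes with each mouse as a block. The edgeR F test was past the threshold for Ifitm2, Ifitm1, and Ifitm3, against 15.8% of the 10219 genes tested, and not for Ifitm6 (adjusted p = 0.41). Relative to mature neutrophil-like cells, the NZB against NZW difference of Ifitm2 was shifted by -1.99 ± 0.26 on the log2 scale in immature and by -4.08 ± 0.25 in dividing neutrophil-like cells (edgeR adjusted p = 2.7e-07 and 2.6e-23). For Ifitm3 the 3 neutrophil classes were not told apart (0.29 ± 0.23 and 0.21 ± 0.24, edgeR adjusted p = 0.996 and 0.95), and classical monocyte-like cells were shifted by -1.81 ± 0.23 (edgeR adjusted p = 1.2e-08).

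The hybrid was compared with each parent from the same mice, so these contrasts are not independent of the one above. NZBWF1 differed from NZB in 29 of 58 combinations (17 higher, 12 lower, against 3.08% of all gene tests, 1.43% higher and 1.65% lower), and from NZW in 20 (4 higher, 16 lower, against 1.0%, 0.535% higher and 0.469% lower, all by edgeR). Ifitm2 in the hybrid was higher than in NZB in 13 classes and lower in 2, and lower than in NZW in 12 classes and higher in 0. Ifitm6 was lower than in NZB in 4 classes, and no class differed from NZW (edgeR, 0 of 7 at an unadjusted p under 0.05 as well).

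In lymphoid and erythroid cells other than NK-cell-like cells, the hybrid lay near the middle of its parents for Ifitm2 on the linear scale. On a scale from 0% at the NZB mean to 100% at the NZW mean in CPM, hybrid means lay at 46.6% in T-cell-like, 33.7% in NK-cell-like, 57.9% in pDC-like, 44.2% in pro-B-like, 47.3% in mature B-like, 53.3% in plasma-cell-like, and 46.3% in erythroblast-like cells. B-lineage cells of no finer class lay at 41.3%. The single hybrid mice lay between 28.5% and 64.3% in these classes, and between 28.5% and 43.6% in NK-cell-like cells. On the log2(CPM + 5) scale the hybrid lay nearer to NZW, at 83.3% in T-cell-like, 71.9% in pro-B-like, and 75.8% in erythroblast-like cells. Ifitm1 in B-lineage classes lay from 38.0% in pro-B-like to 44.2% in small pre-B-like cells in CPM, with plasma-cell-like cells apart at 5.18%.

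For Ifitm2, Ifitm3, and Ifitm6 in immature and mature neutrophils the hybrid lay nearer to NZW than to NZB in CPM. Over all genes tested there, more differed between NZBWF1 and NZB than between NZBWF1 and NZW by edgeR. The shares were 6.10% against 0.921% in mature and 4.49% against 1.18% in immature cells, so the lean is not read as particular to these members. The place of Ifitm2 was 81.3% in mature and 96.8% in immature neutrophil-like cells, that of Ifitm3 was 83.6% and 75.4%, and that of Ifitm6 was 93.8% and 81.0%. On the log2(CPM + 5) scale these places were 56.7% and 94.9% for Ifitm2, 74.7% and 61.9% for Ifitm3, and 91.2% and 74.1% for Ifitm6, so that Ifitm2 in mature cells lay near the middle of the logs. Ifitm1, for which the parents overlapped and were not called different in these classes, lay at 57.3% in mature and 20.2% in immature cells in CPM. The hybrid was lower than NZB in mature neutrophil-like cells by 2.07 ± 0.32 for Ifitm2, a call lost without NZBWF1 mouse 1 or 3 (edgeR adjusted p = 0.014 with all mice, 0.0668 and 0.0551 without), by 1.30 ± 0.12 for Ifitm3, and by 0.98 ± 0.13 for Ifitm6 (edgeR adjusted p = 6.6e-09 and 6.9e-05). In immature cells the calls of the hybrid below NZB for these 3 members each stayed in 16 of 17 alternatives. With cells of at least 2000 UMIs the parents' Ifitm2 difference there was 0.19 and not called (edgeR adjusted p = 0.80), and the place was not computed in those cells. In dividing neutrophil-like cells Ifitm2 of the hybrid lay at the NZB mean (-0.747% in CPM, 0.526% on the log scale).

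**Figure D3:**
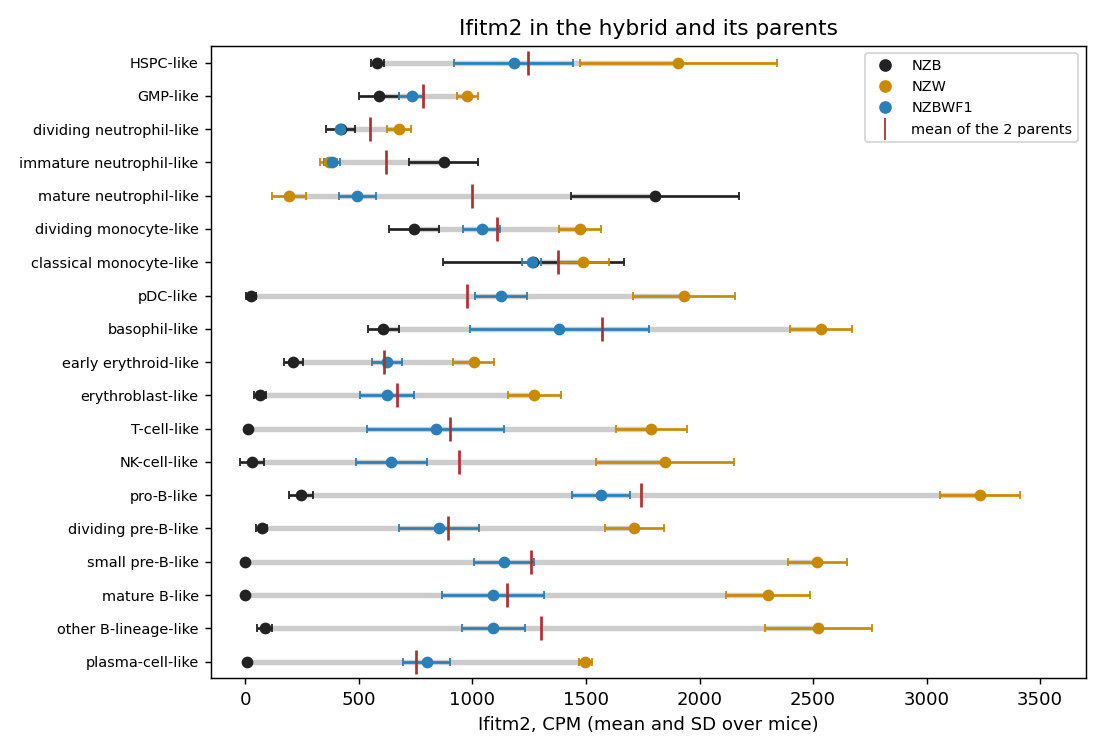
Ifitm2 in CPM in each class, with points for the mean of each strain and bars for the SD over mice, a gray line between the parents, and a red tick at the mean of the parents. The hybrid lies near the red tick in lymphoid and erythroid classes other than NK-cell-like cells, and nearer to NZW than to NZB in immature and mature neutrophil-like cells.

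The hybrid was also compared with the middle of both parents, first on the log scale. By this contrast 16 of 58 combinations differed (11 higher, 5 lower, against 0.375% of all gene tests, 0.291% higher and 0.0833% lower, by edgeR). Where 1 parent is near 0, a value in the middle of the parents in CPM lies above the mean of their logs, so an arithmetic mid-parent was formed by thinning an NZB and an NZW mouse to equal totals and adding them. Against it 8 of 54 combinations differed, all 8 lower in the hybrid, against 0.215% of all gene tests (edgeR). In the classes that held these 8, calls over all genes also ran mostly lower. They were 12 lower and 1 higher in mature neutrophil-like, 31 and 6 in dividing monocyte-like, and 63 and 28 in classical monocyte-like cells. Immature and dividing neutrophil-like cells each had 3 lower and 0 higher, too few to give a direction. All these counts include the members, and the direction is not read as particular to the members. None of the 11 that were higher by the first contrast was called by the second, and 8 of them had a negative sign.

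Against the arithmetic mid-parent, Ifitm2 was lower in mature (-1.07 ± 0.14, SE), immature (-0.79 ± 0.13), and dividing (-0.46 ± 0.10) neutrophil-like cells (edgeR adjusted p = 3.1e-04, 0.013, and 0.044). Ifitm3 was lower in mature neutrophil-like (-0.61 ± 0.10) and dividing monocyte-like cells (-0.40 ± 0.09, edgeR adjusted p = 7.2e-04 and 0.029). Ifitm6 was lower in mature neutrophil-like (-0.52 ± 0.09) and dividing monocyte-like cells (-0.61 ± 0.12, edgeR adjusted p = 2.2e-03 and 6.9e-03). Ifitm1 was lower in classical monocyte-like cells (-1.66 ± 0.28, edgeR adjusted p = 2.2e-04), where the difference depended on the gates. Only 1 pairing of the parent mice was formed, and no alternative was run for this contrast. In lymphoid cells no member was called, although Ifitm2 in NK-cell-like cells stood at -0.56 ± 0.17 (edgeR unadjusted p = 0.00198, adjusted p = 0.90).

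The share of cells with at least 1 UMI gave a per-cell view at equal depth, after thinning every cell to 1000 UMIs. Ifitm2 was found in 1.15% ± 1.19 of NZB, 66.7% ± 8.07 of NZW, and 44.9% ± 9.90 of NZBWF1 T-cell-like cells (mean ± SD, n = 3 mice each), and in 75.8% ± 4.69, 15.5% ± 5.61, and 36.3% ± 5.92 of mature neutrophil-like cells. The strains differed in both (exact permutation test over all 280 divisions of 9 mice into 3 groups, unadjusted p = 0.00357, the smallest possible, 1 of 64 such tests over members and classes). Ifitm2 was thus found in most NZB mature neutrophil-like cells. In NZB T-cell-like cells its share was the same as that of Ifitm6 (1.15% ± 1.19), which is taken below as background of Ifitm6. Expected free RNA in the NZB mice was 2.79, 4.38, and 5.23 CPM for Ifitm6 and 1.31, 1.91, and 2.21 CPM for Ifitm2. The backgrounds of these genes thus need not be equal.

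Ifitm3 was found in 90.2% ± 2.73 of NZB, 57.6% ± 2.76 of NZW, and 65.4% ± 2.71 of NZBWF1 mature neutrophil-like cells (exact permutation test, unadjusted p = 0.00357). Ifitm1, not called by edgeR in these cells, was found in 22.0% ± 6.32, 46.0% ± 8.01, and 41.2% ± 6.82 of them, with every NZB mouse below the others (exact permutation test, unadjusted p = 0.0179). Ifitm6 was found in 98.2% ± 0.476, 93.7% ± 2.48, and 92.6% ± 2.54 of the same cells, shares near the upper limit (exact permutation test, unadjusted p = 0.0536), and without thinning in 99.4%, 98.2%, and 96.7% of them (unadjusted p = 0.00357 by the same exact test). In T-cell-like cells, which were assumed to lack Ifitm6, the share was 0.663% to 1.15% over the strains, taken as a measure of the background of Ifitm6.

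**Figure D4:**
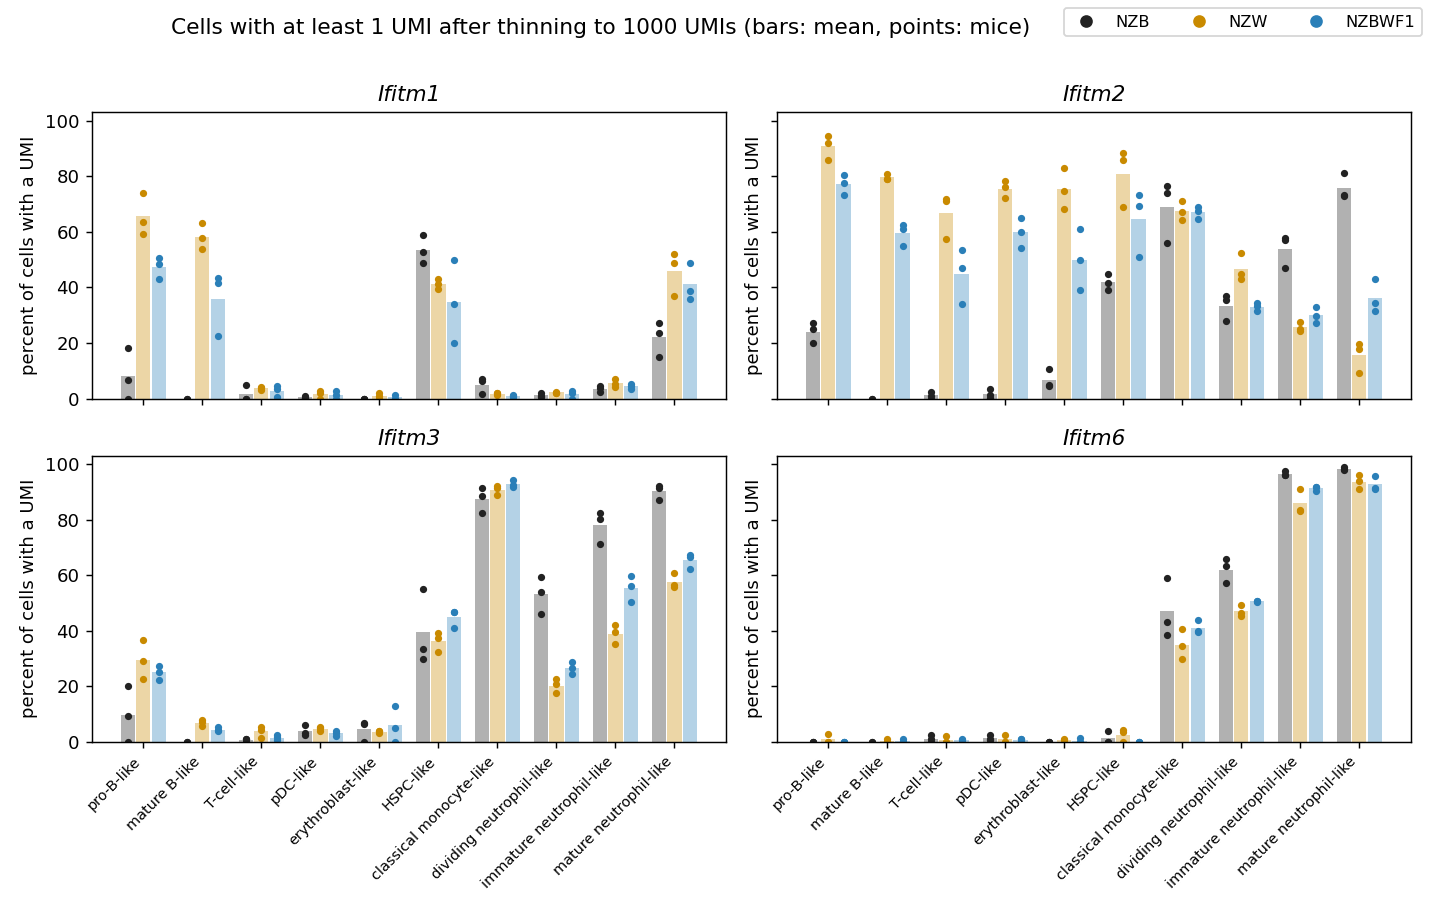
Percent of cells with at least 1 UMI after thinning to 1000 UMIs for 10 classes, with bars for the mean of each strain and points for mice. Ifitm2 is found in nearly no NZB T-cell-like, pDC-like, or mature B-like cells and in 75.8% of NZB mature neutrophil-like cells, while Ifitm6 is near 0 outside myeloid classes.

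In the marrow as a whole all 4 members differed between the parents, against 18.5% of genes. Over all cells of a mouse, Ifitm2 and Ifitm1 were lower in NZB (-1.07 ± 0.11 and -1.24 ± 0.24, edgeR adjusted p = 1.9e-05 and 7.6e-03), and Ifitm3 and Ifitm6 were higher (1.01 ± 0.11 and 1.18 ± 0.22, edgeR adjusted p = 3.4e-05 and 4.1e-03). With cells of at least 2000 UMIs the Ifitm1 difference was -0.52 and not called (edgeR adjusted p = 0.31). A larger number of expressing cells and more RNA per cell cannot be told apart in these sums. B-lineage cells of no finer class made up 69 to 96 cells per NZB mouse and 293 to 584 per NZW mouse, and the part of cell numbers in the Ifitm1 sum was not tested.

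Genes related to the family were listed by their role. Of 30 type I interferon-stimulated genes, 22 gene tests were higher and 26 lower in NZB than in NZW among 214 tests in the 19 classes, against 3.75% higher and 3.65% lower of all gene tests (edgeR). Of the 26 lower, 15 were in classical monocyte-like cells, where 28 of the genes were tested and 0 were higher. Of all genes tested there, 8.20% were higher and 6.99% lower. The median of the list in these cells, as a log2 fold change, was -0.76 against -0.01 over all genes tested. The 15 lower genes included the antiviral enzyme gene Rsad2 (6.42 ± 3.34 CPM in NZB and 57.0 ± 4.81 CPM in NZW), Ifit1 (5.72 ± 3.41 and 39.2 ± 5.86 CPM), Oasl2 (22.8 ± 8.76 and 73.2 ± 21.4 CPM), and Samd9l (67.8 ± 19.2 and 135 ± 15.9 CPM), each mean ± SD with n = 3 mice. In the same cells Ifitm2, Ifitm3, and Ifitm6 were not called. Ifitm1 was called higher in NZB there by gates (log2 fold change 1.57) but not with Leiden clusters (0.02).

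In neutrophils the calls had the other direction. Of the genes tested, 5 of 20 in immature and 5 of 14 in mature neutrophil-like cells were higher in NZB and 0 were lower, against 6.25% higher and 5.28% lower of all genes in immature and 5.47% and 4.14% in mature cells. The median log2 fold change of the list was 0.63 and 0.72, against -0.02 and -0.0019 over all genes. Receptors of interferon and their kinases had 4 tests higher and 1 lower of 96, where 7.39% of all gene tests were called, so this share was not above the background. Among them were Ifngr2 (77.5 ± 6.64 CPM in NZB and 58.8 ± 4.06 CPM in NZW) and Ifnar2 (41.0 ± 4.65 and 30.8 ± 1.89 CPM) in immature neutrophil-like cells (edgeR adjusted p = 3.4e-03 and 0.014).

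Genes beside the cluster on chromosome 7 had 11 tests higher and 10 lower of 114, against 3.75% and 3.65% of all gene tests. The class with the most calls, 4, was GMP-like, with Pgghg, Deaf1, and Sirt3 lower in NZB and Psmd13, a proteasome subunit, higher (log2 fold changes -1.65, -1.12, -0.52, and 0.39). Of the other Ifitm genes, Ifitm7 was lower in NZB in all 4 classes in which it was tested, and Ifitm10 was not called in its 1 class. Ifitm7 stood at 6.46 ± 0.945 CPM in NZB and 20.9 ± 7.13 CPM in NZW GMP-like cells (-1.79 ± 0.35, edgeR adjusted p = 6.8e-05). Genes of proteins that modify or accompany IFITM proteins had 6 tests higher and 2 lower of 91, near the 7.39% called over all gene tests. They included the palmitoyl transferase gene Zdhhc20, lower in NZB (log2 fold change -0.97 ± 0.22), and the tetraspanin gene Cd9, higher in NZB (612 ± 65.6 CPM against 484 ± 17.3 CPM), in dividing neutrophil-like cells.

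The genes with the most similar pattern over the 19 classes were found among 11138 genes by Pearson's r of the mean log2(CPM + 5) over mice, as a description across classes that share libraries. For Ifitm6 these were Cd177 (r = 0.987), a neutrophil surface antigen, then Pilra, Mocos, Siglece, and 6430548M08Rik (r of 0.979 to 0.980). For Ifitm3 they were Fgd4 (0.941), Arl11, Vill, Lst1, and Pik3r6 (0.908). For Ifitm2 they were Tiam1 (0.889), Plscr3, Gab2, Mapk14, and Bace1 (0.808), and for Ifitm1 they included Gm20342 (0.739), Ino80dos, Zfp608, and Casz1 (0.696). The means were taken over mice of all strains, although the order of classes for Ifitm1, Ifitm2, and Ifitm3 was not the same in each. Mature neutrophil-like cells, for example, had the highest Ifitm2 mean of NZB (1805 CPM) and the lowest of NZW (191 CPM), so the likeness is to an average over strains and was not computed within a strain.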

How the data were processed

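Bone marrow of 3 NZB, 3 NZW, and 3 NZBWF1 mice was profiled, with 1 library per mouse. The deposited values are UMI counts per gene and barcode, made by the authors with Cell Ranger 3.1.0 on mm10 after bcl2fastq 2.20 (submitters' processing notes). The number after each barcode was read as a line number in the list of merged libraries deposited beside the matrix, which gave the mouse of each cell. The members and gene lists were chosen with earlier results of these data known.

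Barcodes with at least 1000 UMIs, 500 genes, and at most 10% mitochondrial UMIs were kept (39051 of 68444), and 2526 with the highest simulated-doublet scores were removed (0.8% per 1000 barcodes). The study gives its cells after quality control as 31053, which is also the number of genes in the deposited matrix, and 36525 cells were analysed here. Cells were classed by UMIs of marker genes, the members excluded, and counts were summed per class and mouse where at least 10 cells were present.

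Sums were fitted per class with edgeR 4.0.16 (R 4.3.3; TMM, filterByExpr, robust quasi-likelihood, Benjamini-Hochberg adjustment within a class over all genes tested, threshold 0.05), after the steps were tested on simulated data. The SE of a log2 fold change was derived from it and its F statistic. Variation of the NZB against NZW difference over classes was tested with mouse as a block. Orders of classes were tested by two-sided exact sign-flip tests (Benjamini-Hochberg adjusted over the pairs of a member). Shares of cells were tested by exact permutation tests, printed unadjusted. These ask for any difference among the 3 strains and test no single pair or direction. Floors of 3 UMIs and intervals cover counting error only. Alternatives were DESeq2 1.42.0, no filter on low counts, cells of at least 2000 UMIs and 1000 genes, no removal of doublets, doubled gate minima, 30 named of 39 Leiden clusters, subtraction of free RNA, the replicate number as a block, leaving out each mouse, and an arithmetic mid-parent (NZB and NZW mice of the same number thinned to equal totals and added, a pairing that the labels do not give a meaning). The text names the 4 members, up to 4 genes of each list by smallest p in the class with the most calls, and the 5 genes most like each member, of which 1 is not reported here. Depth was 2359 to 5217 cells per mouse.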

Additional observations from a re-analysis of the deposited data

Results flagged for a closer look

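The difference between NZB and NZW varied over the 15 classes in 1 model for Ifitm2 (edgeR F test, adjusted p = 2.25e-48), Ifitm1 (adjusted p = 5.73e-22), and Ifitm3 (adjusted p = 7.41e-16). For Ifitm2 the difference in pDC-like cells was shifted by -9.55 ± 0.34 from that in mature neutrophil-like cells on the log2 scale. For Ifitm1 the shift from mature neutrophil-like cells was 4.70 ± 0.58 in GMP-like cells and -5.65 ± 0.74 in B-lineage cells of no finer class. In the latter NZB had a mean of 27.7 CPM, and Ifitm1 was found in 0% to 1.45% of cells per NZB mouse without thinning. The size of that shift thus rests on few UMIs and is not read. For Ifitm3 the shift was -3.59 ± 0.52 in pro-B-like cells.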

How the results depend on the processing

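Of 46 member results called between NZB and NZW, all cells included, 34 stayed called in the same direction under every alternative that could test them, as did 21 of 32 for NZBWF1 against NZB and 12 of 21 against NZW. Of the 16 against the mean of logs, 0 did so. With cells of at least 2000 UMIs and 1000 genes, which left fewer classes to test, the counts of calls went from 42 to 24, from 29 to 11, from 20 to 11, and from 16 to 7 in these contrasts. Without each mouse in turn they ranged from 37 to 43, 29 to 32, 15 to 25, and 13 to 20. Against the arithmetic mid-parent 8 combinations were called in place of 16. There the sign changed for Ifitm2 in erythroblast-like (-0.114), T-cell-like (-0.121), pro-B-like (-0.189), dividing pre-B-like (-0.122), small pre-B-like (-0.0969), mature B-like (-0.0900), and other B-lineage cells (-0.340), and for Ifitm1 in mature B-like cells (-0.147), as the arithmetic middle lies above that of logs. With Leiden clusters the sign changed for Ifitm1 in classical monocyte-like cells against NZB (0.0885) and the mean of logs (0.0976), and in early erythroid-like cells against NZW (-0.400), and the cause was not tested. The labels give the replicate numbers no meaning, and they were not taken as pairs, since not every pair of the same number correlated above 0.1 in its deviations over all cells (-0.0374 to 0.335, mean 0.159, against a mean of -0.0788 for other pairs). Of the 9 mice, 6 correlated best with both mice of their own number. The replicate number as a block gave 40, 34, 25, and 22 calls, and 3 of 4 members over all cells, where Ifitm1 passed the threshold without it (edgeR adjusted p = 0.0507 with the block). Of the calls between NZB and NZW in classes, Ifitm3 in mature B-like (0.100) and Ifitm1 in plasma-cell-like cells (0.0524) were lost with the block.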
